A study of Rattus norvegicus with 10 samples.

Results

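Nrf2, the product of Nfe2l2, is a transcription factor that drives genes of glutathione synthesis, thiol reduction and detoxification. In unstressed cells the adaptor Keap1 holds Nrf2 and hands it to a ubiquitin ligase for destruction. Electrophiles and oxidants modify cysteines of Keap1, Nrf2 accumulates, and with a small Maf protein it binds antioxidant response elements in the promoters of its targets. The liver is rich in this pathway, because hepatocytes handle many electrophiles. Sulfur mustard (SM) is itself an electrophile that alkylates DNA, proteins and glutathione.

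The genes described here are 9 widely used readouts of that pathway. Slc7a11, Gclc, Gclm and Gsr belong to glutathione supply, Txnrd1 and Srxn1 to thioredoxin and peroxiredoxin chemistry, Nqo1 and Hmox1 to quinone and heme handling, and Keap1 to the control of Nrf2. They were chosen by name, with earlier results of these data known. Each was represented by every array probe whose accession belongs to it. This gave 11 of 41012 probes and 9 of the 13837 genes that could be named. Txnrd1 had 3 probes and the other genes 1 each.

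Liver RNA of 10 male Sprague Dawley rats was measured on 10 one-colour Agilent Whole Rat Genome arrays, and all livers were taken 24 h after injection. The control group (n = 3) received the solvent, propylene glycol, under the skin. The SM group (n = 4) received a single subcutaneous dose of SM of 3.5 mg/kg, equal to 0.7 of the median lethal dose. The SM + MSTF group (n = 3) received the same SM dose and, 1 h later, 120 mg/kg of MSTF by stomach tube. MSTF is a plant preparation whose phenolic acids come from Salvia miltiorrhiza and whose flavonoids come from Anemarrhena asphodeloides. No group received MSTF without SM, so an effect of MSTF on unexposed liver was not measured.

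Values are log2 of the background-subtracted spot intensity after quantile normalisation over the 10 arrays. A difference of 1 on this scale is a doubling, and levels of different probes are not comparable with each other. Between 51.9% and 61.4% of probes were well above background on an array, and no spot was saturated. The 7 hepatocyte markers all had a tested probe, and their mean log2 signal was 14.22 to 14.58 on each array. The arrays lay on 3 slides. The 3 control arrays shared slide 1 with SM + MSTF replicate 3, the 4 SM arrays filled slide 2, and SM + MSTF replicates 1 and 2 were on slide 3. The SM group and slide 2 therefore cannot be told apart. This holds for SM versus control and for SM + MSTF versus SM, which both compare arrays with no slide in common.

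Of the 9 genes, 7 passed the filter for testing, which kept a probe if all arrays of some group showed it well above background. Their 9 probes were above background on all 10 arrays. Gclm and Slc7a11 did not pass and are given separately. Changes were tested by limma over 22991 probes, with Benjamini-Hochberg adjustment over all of them, and a probe was called at an adjusted p under 0.05 and a change of at least 1.5-fold.

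The antioxidant response element is short enough to show beside the genes. The core TGACNNNGC was searched on both strands of RefSeq promoter windows of the rat assembly GRCr8, each running from 250 bases before to 50 bases after a gene's start. The windows covered 7 of the 9 genes. The core was found for Gclm and for the second of the 2 Txnrd1 windows, and 12.1% of all 33469 windows hold it. Both matches are shown because Gclm and Txnrd1 are the only 2 of the 7 covered genes with one. Hmox1 and Gsr had no window and were not searched. A link between the core and the expression values was not tested. The capitals mark the core, which in both genes reads in reverse orientation on the gene's own strand.
Gclm: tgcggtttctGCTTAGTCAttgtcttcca
Txnrd1: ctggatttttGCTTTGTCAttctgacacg
The Gclm stretch lies at chr2:213031953-213031981 on the plus strand, with the core 172 bases upstream of the start. The Txnrd1 stretch lies at chr7:22755964-22755992 on the minus strand, with the core 78 bases upstream. No match was present in these windows of Nqo1, Gclc, Srxn1, Slc7a11 or Keap1, which says only that these letters are not in this window.

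None of the 7 tested genes was called after SM. In SM versus control 2.41% of all probes were called, 0.974% as higher and 1.43% as lower (224 and 329 probes, or 40 and 186 with normexp background correction). Of the 7 genes, each read by its brightest tested probe, 6 had a positive log2 fold change and Keap1 was at -0.01. The median over the 7 genes was 0.33, beside 0.03 over all probes tested, of which 55.9% were positive. Gsr, Txnrd1 and Nqo1 had an unadjusted limma p under 0.05 with a higher mean in SM, which is 3 of 7 genes beside 9.28% of all probes. For Gsr and for the brightest Txnrd1 probe all SM arrays were above all controls. This is 2 of 7 genes beside a background of 10% of probes that were higher without overlap. Txnrd1 enters both counts by its brightest probe only. Its second brightest probe stood at -0.12 and its dimmest at 0.22, each with an unadjusted limma p above 0.05.

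**Figure D1:**
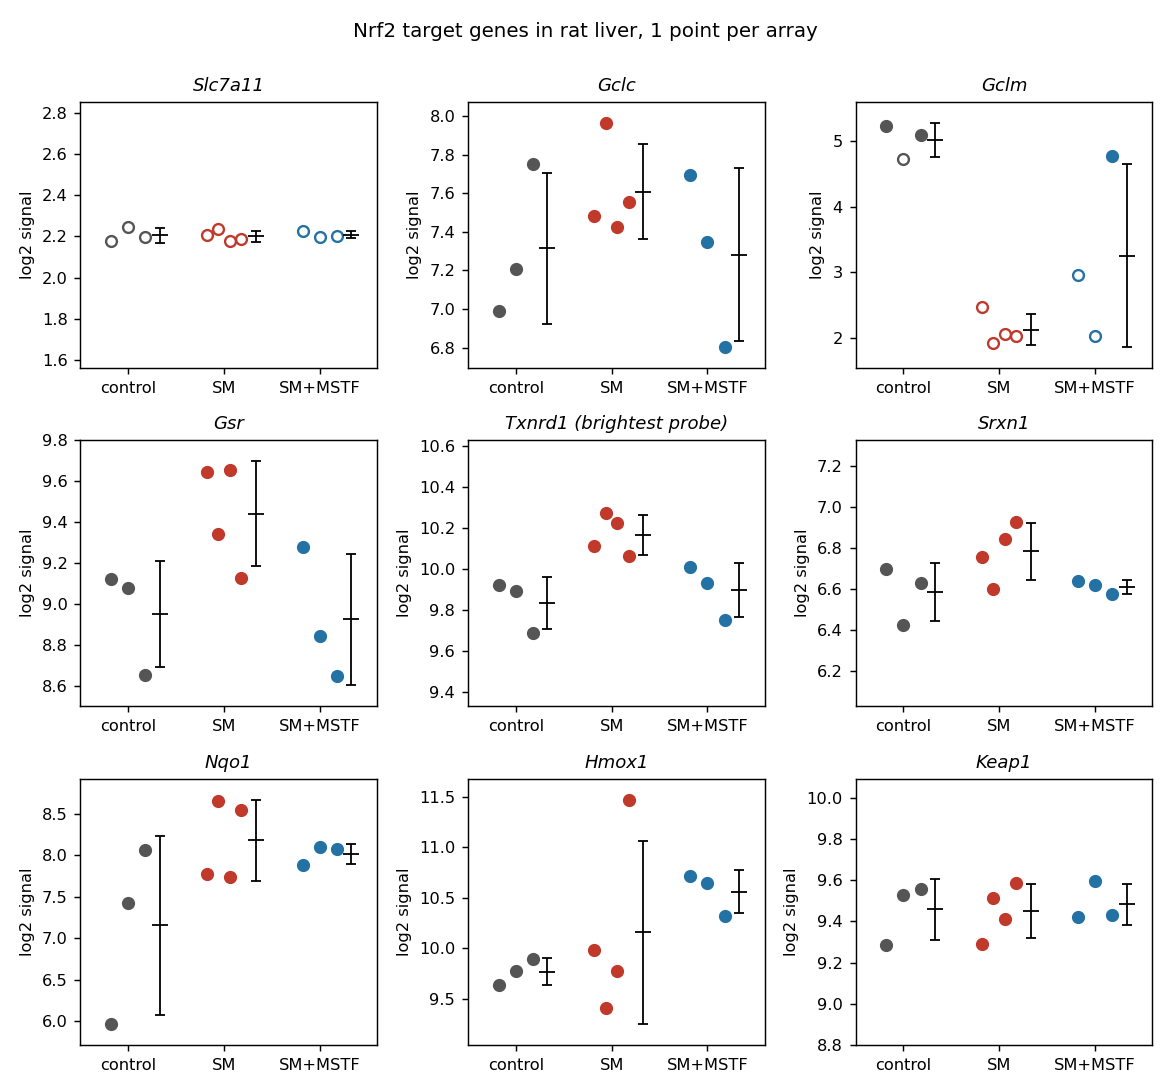
Log2 signal of the 9 Nrf2 target genes on each array (vertical axis, own scale for each gene) by group (horizontal axis), with 1 point per array and the group mean and SD beside the points. Filled points are well above background and open points are not. SM replicate 4 stands alone for Hmox1, control replicate 1 for Nqo1, and Gclm is high on the 3 controls and on SM + MSTF replicate 3.

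Glutathione reductase, encoded by Gsr, returns oxidised glutathione to its reduced form. Its log2 signal was 9.12, 9.08 and 8.66 in the controls, 9.65, 9.34, 9.66 and 9.13 after SM, and 9.28, 8.85 and 8.65 after SM + MSTF. The 4 SM arrays lay above the 3 controls, though SM replicate 4 (9.13) was barely above control replicate 1 (9.12), and SM + MSTF overlapped both other groups. SM versus control gave a log2 fold change of 0.49 ± 0.19 (SE), a ratio of 1.40 (limma adjusted p = 0.243). Set against SM, SM + MSTF was at -0.52 ± 0.19 (limma adjusted p = 0.249). SM + MSTF against control stood at -0.03 ± 0.21.

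Thioredoxin reductase 1, encoded by Txnrd1, keeps cytosolic thioredoxin reduced. Its brightest probe read 9.92, 9.89 and 9.69 in the controls, 10.11, 10.27, 10.23 and 10.06 after SM, and 10.01, 9.93 and 9.75 after SM + MSTF. All 4 SM arrays were above every array of both other groups. For this probe SM versus control gave 0.33 ± 0.10 on the log2 scale (limma adjusted p = 0.142). The SM + MSTF arrays stood at -0.27 ± 0.10 relative to SM (limma adjusted p = 0.259). The other probes of the gene did not share this pattern. The second brightest stood at -0.12 ± 0.08 in SM versus control and was lower without overlap (7.96% of all probes were), with SM at 9.08 to 9.27 and control at 9.27 to 9.34. The separation was bare, with the highest SM array at 9.2667 and the lowest control at 9.2673. The dimmest stood at 0.22 ± 0.15 and overlapped. Which transcripts each probe reads was not tested.

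Nqo1 encodes a quinone reductase and is among the most used reporters of Nrf2. Its log2 signal was 5.96, 7.43 and 8.07 in the controls, 7.78, 8.66, 7.73 and 8.55 after SM, and 7.88, 8.10 and 8.08 after SM + MSTF. Control replicate 1 was lower than every other array by more than 1 log2 unit, and control replicate 3 lay inside the range of both exposed groups. Among the log2 fold changes in SM versus control it had the highest value of the 7 genes, 1.03 ± 0.44, a ratio of 2.04 (limma adjusted p = 0.281). It was 0.43 without control replicate 1 and 1.48 without control replicate 3. SM + MSTF versus control gave 0.87 ± 0.47 (adjusted p = 0.590), or 0.27 and 1.32 without the same arrays. The 95% interval of SM + MSTF versus SM from limma ran from -1.15 to 0.82 around -0.16.

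Srxn1 encodes sulfiredoxin, which repairs over-oxidised peroxiredoxins, and Gclc the catalytic subunit of the enzyme that starts glutathione synthesis. Srxn1 was at 6.43 to 6.70 in the controls, 6.60 to 6.93 after SM and 6.57 to 6.64 after SM + MSTF. Gclc was at 6.99 to 7.75, 7.43 to 7.97 and 6.80 to 7.69. The groups overlapped for both genes in all 3 comparisons. The log2 fold change in SM versus control was 0.20 ± 0.11 for Srxn1 and 0.29 ± 0.24 for Gclc, neither past the threshold (limma adjusted p = 0.398 and 0.605). Keap1, the sensor itself, was read at 9.29 to 9.60 over the 10 arrays. Its 95% interval from limma ran from -0.25 to 0.24 in SM versus control, from -0.24 to 0.29 in SM + MSTF versus control and from -0.21 to 0.28 in SM + MSTF versus SM.

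**Figure D2:**
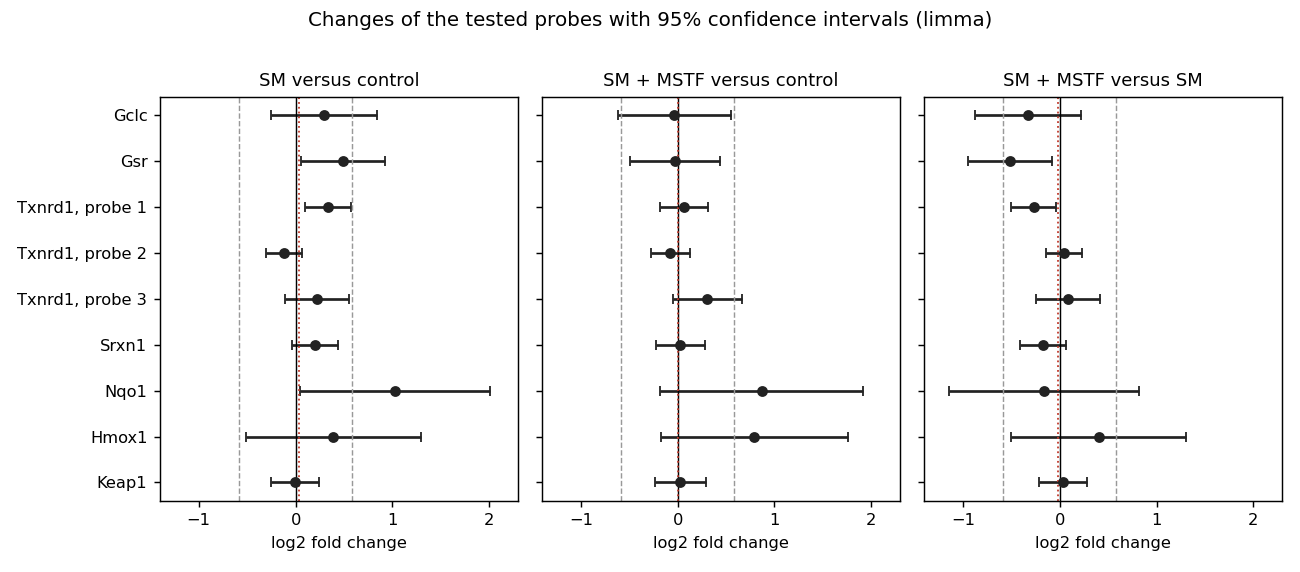
Log2 fold change with its 95% confidence interval from limma for the 9 tested probes in 3 comparisons, with Txnrd1 probes numbered from brightest to dimmest. Grey dashed lines mark 1.5-fold, and the red dotted line marks the median of all 22991 probes. Intervals of Nqo1 and Hmox1 are the widest, and those of Gsr, Nqo1 and Txnrd1 probe 1 exclude 0 in SM versus control.

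No gene of the 7 was called in either comparison of the SM + MSTF group. In SM + MSTF versus control 0% of probes were called by limma, while 9.54% had an unadjusted p under 0.05, among them none of the 7 genes. Of the 7, 5 were positive, with a median log2 fold change of 0.03 beside 0.00 over all probes. Only Hmox1 did not overlap, which is 1 of 7 beside 8.03% of probes higher without overlap. In SM + MSTF versus SM 1.26% of probes were called, 0.939% of all probes as lower. Gsr and the brightest Txnrd1 probe had an unadjusted limma p under 0.05 there, both lower, beside 9.7% of all probes lower at that threshold. Txnrd1, by that probe, was the 1 gene lower without overlap, beside 8.73%. The other Txnrd1 probes stood at 0.04 ± 0.08 (second brightest) and 0.08 ± 0.15 (dimmest) and overlapped. The median over the 7 genes was -0.17 and that of all probes -0.02. These comparisons share arrays with SM versus control, so the positive values there and the negative values here are not independent. In the moderated F-test over the 3 groups 2.07% of probes were called. The smallest adjusted p of the 7 genes was 0.208, for the brightest Txnrd1 probe.

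Hmox1 encodes heme oxygenase 1, which breaks heme down to biliverdin, iron and carbon monoxide, and which macrophages that clear red cells express strongly. Its probe was printed 10 times on each array. The mean of the 10 spots was 9.63, 9.78 and 9.89 in the controls, 9.98, 9.40, 9.78 and 11.47 after SM, and 10.71, 10.64 and 10.32 after SM + MSTF. The 3 SM + MSTF arrays lay above all controls and above 3 of the 4 SM arrays, and SM replicate 4 lay above everything. The spots of an array differed little, with an SD of 0.03 to 0.06, and on SM replicate 4 all 10 read between 11.41 and 11.54. The highest spot of any other array read 10.80.

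SM versus control gave 0.39 ± 0.40 for Hmox1 (limma adjusted p = 0.687), which turned to -0.05 without SM replicate 4. SM + MSTF versus control gave 0.79 ± 0.43, a ratio of 1.73 (limma adjusted p = 0.592). Without SM replicate 4, which widens the shared estimate of the spread, the limma adjusted p of that comparison was 0.425. SM + MSTF versus SM gave 0.40 ± 0.40, and 0.84 without SM replicate 4 (limma adjusted p = 0.0619). Within slide 1, where SM + MSTF replicate 3 can be set against the 3 controls, the fit with slide as a block gave 0.55. That value rests on 1 exposed array, so no p-value is given for it.

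Markers of Kupffer cells, the macrophages of the liver, were read on the same arrays, and all 8 on the list had a tested probe. Their mean log2 signal was 11.72 to 11.98 in the controls, 12.05 to 12.09 after SM + MSTF, 11.21 to 11.64 in SM replicates 1 to 3 and 12.06 in SM replicate 4. All 8 were positive in SM + MSTF versus control (median 0.29), and 3 of the 8 were higher without overlap, beside 8.03% of all probes. All 8 were also positive in SM + MSTF versus SM (median 0.43). Of these, 4 had an unadjusted limma p under 0.05, beside 6.23% of all probes higher at that threshold, and 1 was higher without overlap, beside 5.95%. All 8 were negative in SM versus control (median -0.12). None of the 8 was called by limma in any comparison. Other cell types also varied. The mean of the 2 tested neutrophil markers was 6.87 to 7.92 in the controls, 7.07 to 9.57 after SM and 7.29 to 8.71 after SM + MSTF. The 3 tested erythroid markers were all positive in SM versus control (median 0.90) and in SM + MSTF versus control (median 0.59). The 1 tested B cell marker, Cd79b, was at -2.18 in SM versus control (limma adjusted p = 0.125) and at -1.39 in SM + MSTF versus control. In SM it was lower without overlap, beside 7.96% of all probes, and above background on only 2 of 4 arrays. The tested T cell, cholangiocyte, endothelial and stellate markers had medians of -0.14, 0.22, -0.01 and 0.05 in SM versus control. None of these other markers was called in any comparison. The part of any of these markers in the Hmox1 values was not tested. In whole tissue a smaller number of cells of a type and less RNA in each of them cannot be told apart. By Pearson correlation over the 10 arrays, the named genes most like Hmox1 were Anxa7 (r = 0.950, Spearman's rho = 0.903), Rhog (r = 0.948, rho = 0.952) and Pkm (r = 0.928, rho = 0.842), out of 11789 probes ranked. For Nqo1 they were Cyfip1 (r = 0.952, rho = 0.891), Fut4 (r = 0.938, rho = 0.784) and Adk (r = 0.930, rho = 0.879). All share the same 10 arrays, of which SM replicate 4 for Hmox1 and control replicate 1 for Nqo1 lie far from the rest, so the coefficients are a description only.

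**Figure D3:**
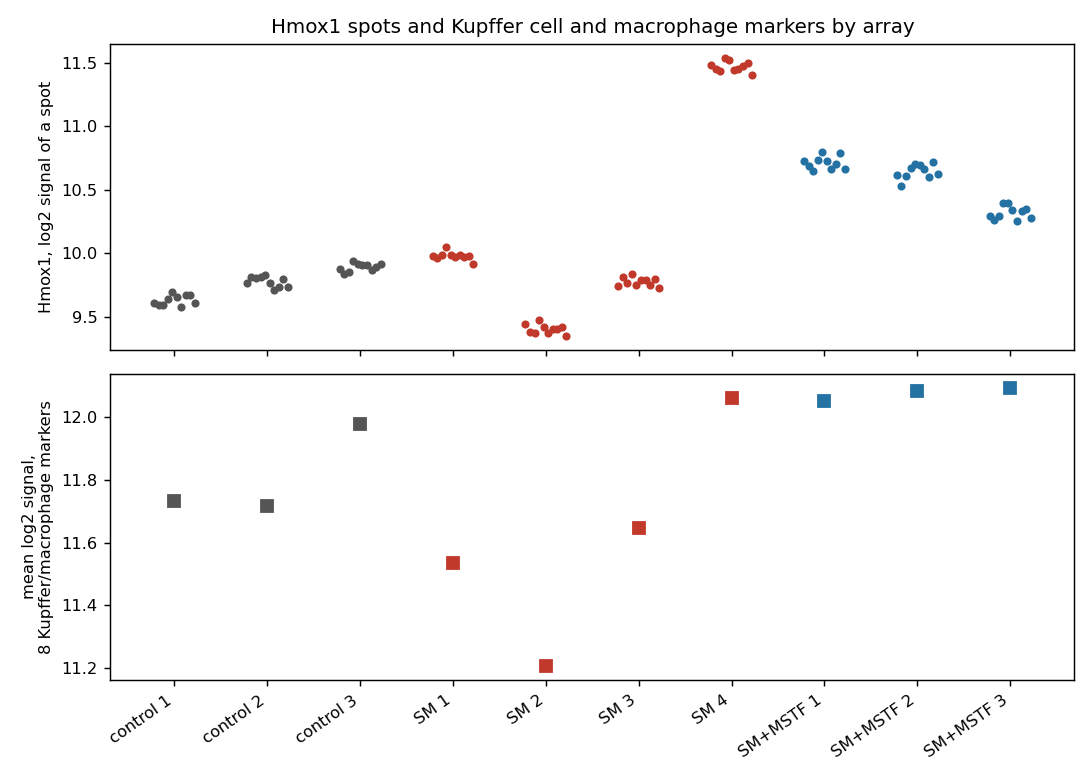
Upper panel: log2 signal of each of the 10 Hmox1 spots on each array. Lower panel: mean log2 signal of the 8 Kupffer cell and macrophage markers on the same arrays. The 10 spots of SM replicate 4 lie between 11.41 and 11.54, above every spot of the other arrays, and the marker mean of that array is 12.06.

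Gclm encodes the modifier subunit that makes the glutathione-synthesising enzyme efficient at low substrate. Its probe was dim. Its log2 signal was 5.23, 4.72 and 5.09 in the controls, 2.47, 1.94, 2.07 and 2.04 after SM, and 2.97, 2.04 and 4.76 after SM + MSTF. It was well above background on 2 of 3 controls, on 0 of 4 SM arrays and on 1 of 3 SM + MSTF arrays. The measured group means were 5.01 in control and 2.13 in SM. Each SM array was then set at the lowest signal of any probe on it that counted as well above background (3.77 to 4.17). On that basis the signal was 2.07-fold lower in SM than in control. The limit for this spot itself was not measured, so the value is no strict minimum. Control replicate 2, itself not well above background, enters the control mean at its measured value. The 2.07-fold value holds only for this background correction. Normexp correction gave a ratio of 0.709 in SM versus control. The spot median minus its local background was 54, 53 and 72 intensity units in the controls, 16, 25.5, 26.5 and 26.5 after SM, and 31, 34 and 44 after SM + MSTF. In these unprocessed values all 3 controls were above all 4 SM arrays, and the SM + MSTF arrays lay between them.

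The 4 arrays with the high Gclm values are exactly the 4 arrays of slide 1. SM + MSTF replicate 3, the only exposed rat on that slide, was at 4.76, and replicates 1 and 2 of its group, on slide 3, were at 2.97 and 2.04. The 3 controls on the same slide were at 4.72 to 5.23, so this exposed array lay within their range. The fit with no filter and slide as a block, added after the data were seen, put SM + MSTF versus control at -0.25 for Gclm. No test is drawn from 1 array. Because no SM array gave a Gclm signal well above background, no fold change is given beyond that floor-based value and the normexp ratio. A limma fit with no filter on dim probes, which takes the SM values as they stand, gave an adjusted p of 0.0537 in SM versus control. In fits with no filter that were added after the data were seen, the adjusted p was 0.00187 with only SM and control, 0.0410 with scaling to the 75th percentile, 0.0463 with slide as a random block, 0.0538 with the authors' own values and 0.154 with the replicate number as a block. It was 0.00175 without SM + MSTF replicate 3, 0.0362 without SM + MSTF replicate 2 and 0.0761 to 0.154 when any other array was left out. With normexp it was 0.0403, at the ratio under 1.5-fold given above. For Gclm the exposure and the slide cannot be told apart in SM. The fit with slide as a random block does not separate them either, as it uses a correlation shared by all probes. Slide 1 is the only slide that holds both control and exposed livers.

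**Figure D4:**
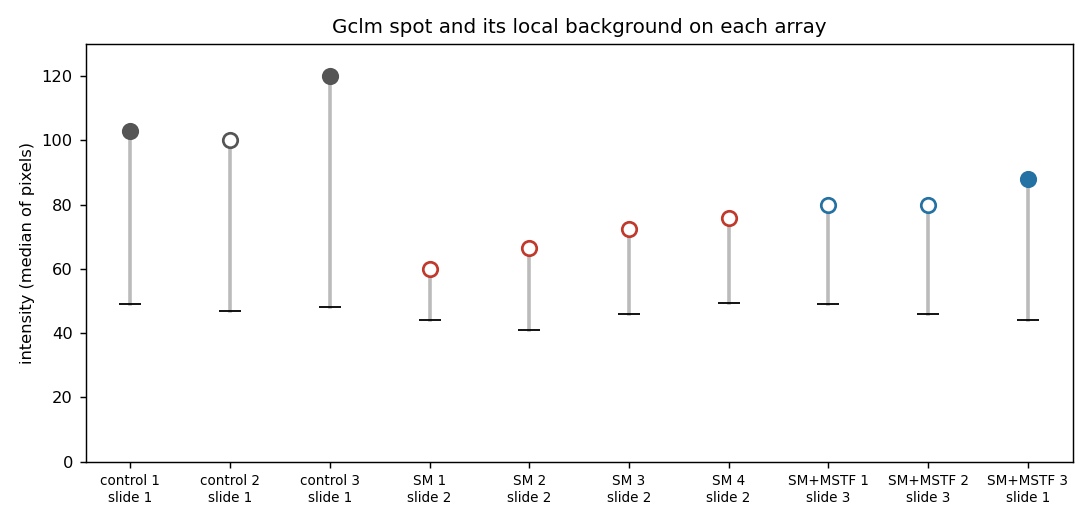
Median intensity of the Gclm spot (circles, filled where well above background) and of its local background (dashes) on each array, in scanner units, with the slide under each array name. The 4 spots of slide 1 read 103, 100, 120 and 88, and the other 6 read 60 to 80.

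Slc7a11 encodes the cystine transporter that feeds glutathione synthesis. On none of the 10 arrays did its probe stand well above background, and its spot exceeded its local background by 3 to 17 intensity units. No fold change is given for it.

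None of the other pathway genes tested was called in any comparison. Of 10 regulators of Nrf2, 8 were tested, and 4 were positive and 4 negative in SM versus control, with a median log2 fold change of 0.01. Nfe2l2 itself stood at -0.19 ± 0.27, at -0.04 ± 0.29 in SM + MSTF versus control and at 0.15 ± 0.27 in SM + MSTF versus SM. None of the 8 had an unadjusted limma p under 0.05 in any of the 3 comparisons. The mRNA of Nfe2l2 does not report the amount of Nrf2 protein, which is set mainly by its destruction.

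Partners that work with the 9 genes include thioredoxins, peroxiredoxins and biliverdin reductases. Of the 12, 6 were positive and 6 negative in SM versus control (median -0.01). Prdx2, a cytosolic peroxiredoxin, was at 13.24 to 13.29 in the controls and 13.39 to 13.55 after SM, without overlap. Its log2 fold change was 0.22 ± 0.08 (limma adjusted p = 0.195), and 0.20 ± 0.08 in SM + MSTF versus control (adjusted p = 0.497). Prdx4, the peroxiredoxin of the endoplasmic reticulum, was named after its values were seen, as the other partner with an unadjusted p under 0.05 in SM + MSTF versus control. It stood at -0.37 ± 0.12 there (limma adjusted p = 0.424).

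Of 26 further Nrf2 targets, which include glutathione transferases, pentose phosphate enzymes, ferritins and export pumps, 24 were tested. In SM versus control 17 were positive and 7 negative (median 0.10). Against control 10 were positive and 14 negative after SM + MSTF (median -0.07), and against SM 6 were positive and 18 negative (median -0.12). Ugdh, which makes UDP-glucuronate for glucuronidation, was at 11.28 to 11.40 in the controls and 11.60 to 11.72 after SM, with a log2 fold change of 0.29 ± 0.10 (limma adjusted p = 0.202). Entpd5, a nucleotidase of the endoplasmic reticulum, was likewise named after its values were seen, as the 1 target with an unadjusted p under 0.05 in SM + MSTF versus SM, at -0.37 ± 0.15 (limma adjusted p = 0.276). Its SM + MSTF arrays read 13.14, 13.13 and 12.53. Replicate 3, the lowest of these, also had the lowest mean over the 24 targets, 11.82, beside 12.24 to 12.46 on the other arrays.

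**Figure D5:**
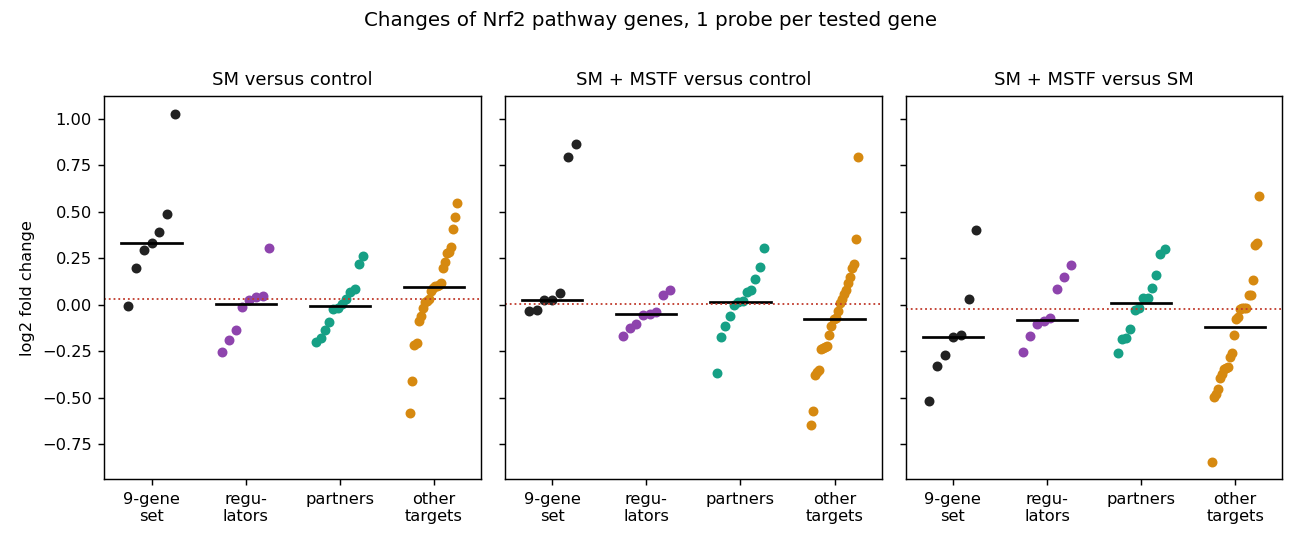
Log2 fold change of each tested gene, 1 probe a gene, for the 9-gene set (7 tested), 8 regulators of Nrf2, 12 partners and 24 further targets in 3 comparisons. Black bars are medians and the red dotted line is the median of all probes; the 9-gene set has medians of 0.33, 0.03 and -0.17 from left to right.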

How the data were processed

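RNA was labelled with Cy3, 1 array per rat. The authors read the spots with Agilent Feature Extraction 10.7, and the deposited intensity of each spot is its background-subtracted processed signal. The authors also deposited log2 values, quantile normalised in GeneSpring, which served as an alternative and correlated with the values used here at 0.999987 or more. Control spots and 0 to 4 non-uniform spots per array were left out. Quantile normalisation of the intensities across arrays was followed by log2 and by averaging of the 43379 spots into 41012 probes, of which 17512 were named through RefSeq accessions (GRCr8). Groups came from the treatment labels. All 10 arrays entered 1 limma fit (R 4.3.3, limma 3.58.1), which was tested on simulated data. A gene was represented by its brightest tested probe. All 9 genes were named, with the called genes of each pathway list and the 3 of largest change at an unadjusted p under 0.05 in SM versus control, and for Nqo1 and Hmox1 the 3 most correlated genes. The members and lists were chosen with earlier results of these data known. The alternatives were other scalings, background correction and filters, only the groups compared, no fold minimum, the methods' t-test, replicate number or slide as a block, the next brightest probe and each array left out. The number of arrays limits the precision.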

Additional observations from a re-analysis of the deposited data

Results flagged for a closer look

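Ugdh stood out within the SM group. Its log2 signal was 11.60, 11.60, 11.72 and 11.62, and SM replicate 3 was separated from the nearest array by 0.841 of the whole range of the group, past the critical value of Dixon's test for 4 values. The range itself was narrow. The test was applied to 14 probes, and chance flags about 1 group in 20. Hmox1, with SM replicate 4 apart, reached 0.722, which is below that value.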

How the results depend on the processing

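The count of called genes among the 9 stayed at 0 in all 3 comparisons and the F-test under the alternatives run, with these exceptions. The methods' t-test called 1 in SM + MSTF versus control before adjustment (Hmox1) and 0 after it. With no filter and only the groups compared, 1 was called in SM versus control (Gclm, whose SM signal lies below background). Of 16 alternatives with no filter, Gclm was called in SM versus control in 5, and the adjusted p values stand with its signals. In SM + MSTF versus control Gclm was called in 1 of 17, without SM + MSTF replicate 3 (limma adjusted p = 0.0155). That fit sets SM + MSTF arrays of slide 3, both not above background for Gclm, against controls of slide 1. Counts over all probes, by contrast, moved from 553 (SM versus control), 0 (SM + MSTF versus control), 290 (SM + MSTF versus SM) and 475 (F-test). In SM versus control they were 226 with normexp, 342 with no filter, 336 with probes above background on all arrays, 1131 and 320 with the methods' t-test before and after adjustment, 53 with the replicate block and 85 with slide as a random block. For SM + MSTF versus SM they were 60 with normexp, 140 with probes above background on all arrays, 155 with only the groups compared (145 also with no filter), 863 and 13 with the t-test, 64 with the replicate block and 102 with slide as a random block. For SM + MSTF versus control the t-test gave 285 before adjustment, and slide as a fixed block 158, which rests on 1 SM + MSTF array, assumed to vary like the other arrays in that fit. The F-test called 191 with normexp, 241 with no filter and 254 with probes above background on all arrays. Leaving out 1 array gave 65 (control replicate 2 left out) to 717 (SM + MSTF replicate 3 left out) in SM versus control, 0 to 247 (without SM + MSTF replicate 3) in SM + MSTF versus control, 98 (without SM replicate 1) to 301 in SM + MSTF versus SM and 65 (without SM replicate 1) to 855 (without SM + MSTF replicate 3) in the F-test. The cause was not tested.

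Signs turned only for log2 fold changes close to 0, and for Hmox1. In SM versus control Hmox1 was at -0.048 with the replicate block, where SM replicate 4 is alone in its block and drops out, and Keap1 at 0.0020 with normexp. For SM + MSTF versus control Srxn1 was at -0.0048 with 75th percentile scaling, Gsr at 0.020 with normexp, and, with slide as a fixed block and again 1 exposed array, Srxn1 at -0.0096, Keap1 at -0.026 and Txnrd1 at -0.082. Gsr and Gclc kept their negative sign with slide as a fixed block, at -0.301 and -0.511. Leaving out 1 array gave ranges across 0 in SM versus control for Hmox1 (-0.048 to 0.641) and Keap1 (-0.094 to 0.046), in SM + MSTF versus control for Gsr (-0.204 to 0.110), Srxn1 (-0.052 to 0.084), Gclc (-0.240 to 0.205), Keap1 (-0.060 to 0.076) and Txnrd1 (-0.010 to 0.136), and in SM + MSTF versus SM for Keap1 (-0.023 to 0.080). Arrays with the same replicate number did not all deviate together (correlations of their deviations from -0.0991 to 0.169), so the numbers were not taken to pair the rats. Slide as a fixed block could not be fitted for comparisons with SM. Each group has 3 or 4 rats, and dim probes such as Gclm depend on the background correction.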
